A study of Mus musculus with 6 samples.

Results

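The Schwann cell, nerve and neurotrophic genes of inguinal white adipose tissue (iWAT) were described as a group of 29 gene symbols. They were listed by function (myelin, Schwann cell, axon and neurotrophic factor genes) with no threshold on a measured value, out of 36144 symbols in the deposited gene table. All 29 were found, and 26 of them were among the 16082 genes with enough counts for edgeR to test. The remaining 3, *Gjb1*, *Th* and *Gdnf*, had too few counts for a test and are given as values.

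The RNA came from whole iWAT of 10-week-old female mice on the C57BL6/J background, 3 of them Cebpa_fl/fl and 3 Cebpa_ASKO, fed chow ad libitum. Both genotypes carried floxed *Cebpa*, the gene of the transcription factor C/EBPα, and Cebpa_ASKO mice also carried AdipoQ-Cre, whose promoter is active in adipocytes late in their differentiation, while their Cebpa_fl/fl littermates were Cre-negative. Deletion was thus directed to cells that express adiponectin, and not to Schwann cells or neurons. The depots of both sides were pooled within each mouse without their lymph nodes, each mouse gave 1 library of poly-A RNA, and all 6 libraries carried the same batch label.

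Schwann cells are the glia of peripheral nerves. Myelinating Schwann cells wrap larger axons in a lipid-rich sheath under the control of Sox10 and Egr2, and non-myelinating Schwann cells bundle thin axons, among them the sympathetic fibres that drive lipolysis in fat. Neurotrophins act through Trk receptors and p75 (*Ngfr*), and ligands of the GDNF family act through Ret with a GFRα coreceptor. Most mRNA of a nerve fibre is made in cell bodies that lie in ganglia outside the depot.

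Libraries held between 33141769 and 49477671 estimated counts. Levels of 1 gene across libraries are given as TMM-normalized CPM, the estimated counts of a gene as a share of its library, and levels of different genes are compared only in TPM, the corresponding unit corrected for transcript length. *Cebpa* itself was at 446 to 497 CPM in Cebpa_fl/fl and at 37.1 to 45.6 CPM in Cebpa_ASKO. Markers of other cells differed between libraries. All 10 skeletal muscle markers were higher in Cebpa_ASKO by edgeR's test, with a summed level of 516 to 854 TPM in Cebpa_fl/fl and 1891 to 5176 TPM in Cebpa_ASKO. Of 10 adipocyte markers, 6 were lower (28497 to 37892 TPM against 11660 to 13173 TPM). Mammary epithelial markers summed to 765 to 1650 TPM and 2143 to 2437 TPM, with 0 of the 10 tested past the threshold in edgeR, 8 at an unadjusted p below 0.05 (19.8% of all genes tested). Of its milk genes, *Csn2* and *Wap* were at or near 0, and *Csn3* was at 24.6 to 87.7 CPM in Cebpa_fl/fl and 90.7 to 165 CPM in Cebpa_ASKO. The library Cebpa_fl/fl 1 stood apart by its lymphocyte markers, which summed to 145 TPM there and to at most 6.18 TPM in the other libraries.

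Genes of nerve glia were detected, and genes of neurons were detected in part. *Sox10*, a transcription factor of Schwann cells that melanocytes and mammary epithelium also express, was detected in every library at 8.21 to 16.2 TPM. In contrast, *Th*, which encodes the rate-limiting enzyme of catecholamine synthesis in sympathetic neurons, had 1 count in Cebpa_fl/fl 3 and 0 in each of the other libraries, where 3 counts correspond to between 0.0633 and 0.0948 CPM. *Dbh*, *Chat* and *Scn10a*, 3 further genes of autonomic or sensory neurons, had no counts in any library. Other neuronal genes were measured, among them *Uchl1* at 2.28 to 6.17 CPM, the axonal gene *Stmn2* at 1.09 to 2.33 CPM and the noradrenaline transporter gene *Slc6a2* at 1.35 to 2.80 CPM over the 6 libraries. *Dbh*, *Chat*, *Scn10a*, *Stmn2* and *Slc6a2* were chosen after their values were seen.

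Of the 26 members tested, 3 differed between genotypes in the quasi-likelihood test of edgeR, at a threshold of 0.05 on the p adjusted by the Benjamini-Hochberg method over all genes tested (edgeR adjusted p). *S100b* and *Ncmap* were higher in Cebpa_ASKO and *Scn7a* was lower. Over all genes tested, 5.22% passed this threshold, 1.39% as higher and 3.83% as lower, and 26 genes at that rate would give 1 or 2 calls. Most of the other members lay slightly above 0, with 23 of 26 log2 fold changes positive (53.9% of all genes tested) and a median of 0.36 (0.02 over all genes tested). The genotypes did not overlap for 11 of the 26, 10 higher and 1 lower, beside 26.1% of all genes tested. At an unadjusted p below 0.05 in edgeR were 9 of the 26, beside 19.8% of all genes tested. In bulk tissue, fewer cells of a type and less RNA per cell cannot be told apart, and all values are shares of a library in which adipocyte transcripts were lower.

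**Figure D1:**
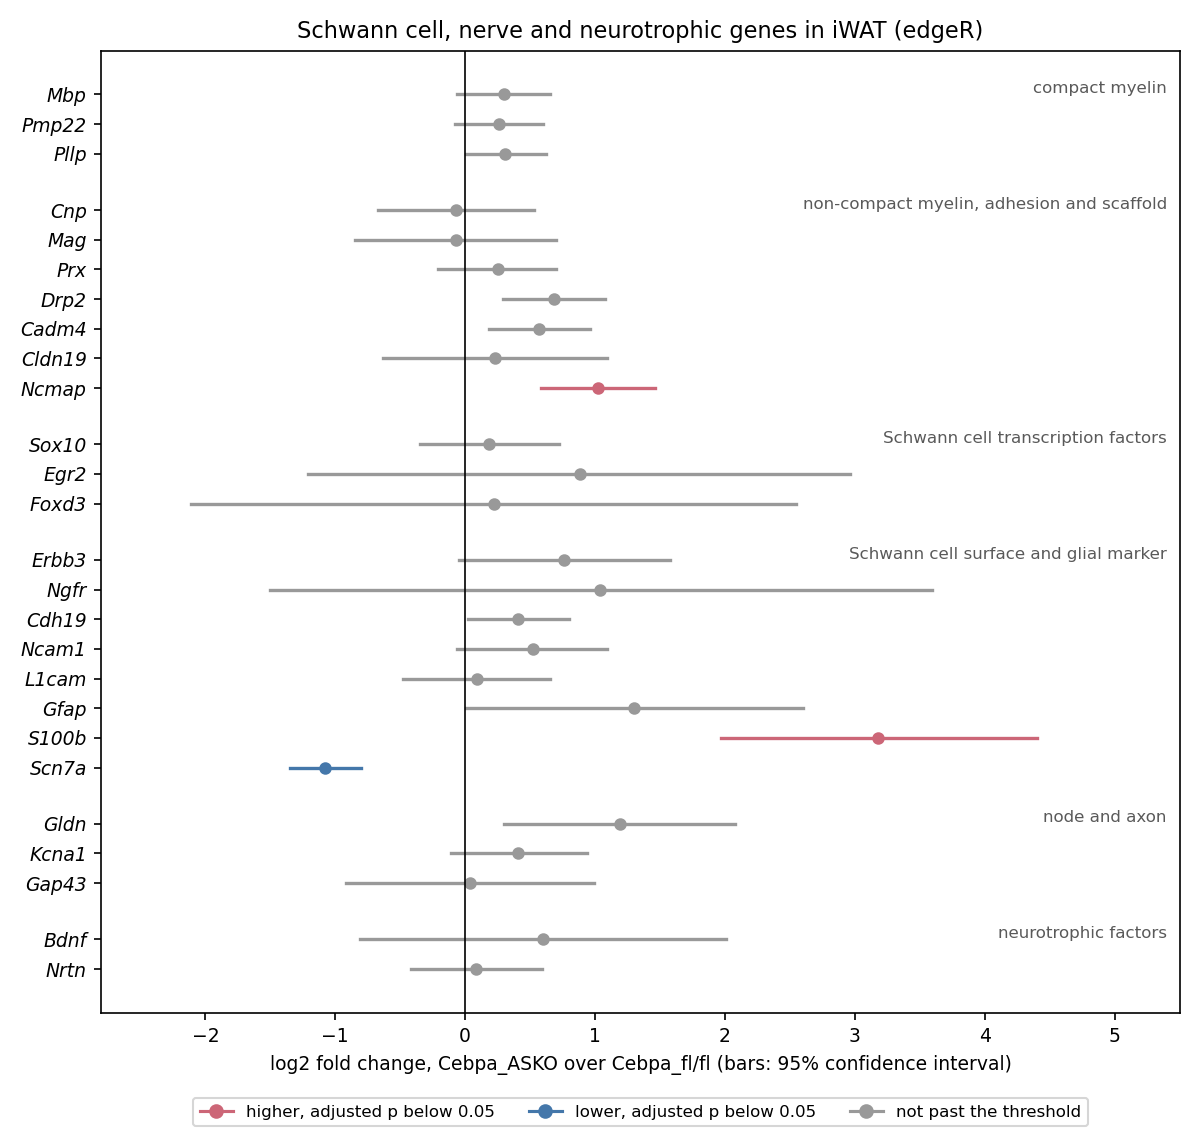
Log2 fold change of the 26 tested members (x axis, Cebpa_ASKO over Cebpa_fl/fl, edgeR) by role (y axis), with 95% confidence intervals as bars and colour for members past an adjusted p of 0.05. S100b at 3.18 and Ncmap at 1.02 were past the threshold as higher, Scn7a at -1.08 as lower, and most of the remaining members sat a little above 0 with wide intervals.

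*S100b* showed the largest difference among the members. It encodes a small calcium-binding protein that is used as a Schwann cell marker and is also made by other cells, including adipocytes and melanocytes. In Cebpa_fl/fl it was measured at 15.6, 8.45 and 5.68 CPM, and in Cebpa_ASKO at 128, 97.5 and 44.6 CPM. Every Cebpa_ASKO library was thus above every Cebpa_fl/fl library, and the ratio of the means was 9.09 (9.90 ± 5.11 against 90.0 ± 42.1 CPM, SD, n = 3 each). The log2 fold change was 3.18 with a standard error of 0.510 and a 95% confidence interval from 1.97 to 4.40 (edgeR adjusted p = 0.0185). *S100b* lies on chromosome 10 (chr10:76253853-76261159, GRCm38), and its counts came from a single annotated transcript.

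Of the other Schwann cell surface and glial markers, 0 of 7 passed as higher in edgeR, and 3 of the 7 were at an unadjusted p below 0.05 in either direction (19.8% of all genes tested). In TPM, *Pmp22* (127), *Mbp* (35.9), *Scn7a* (25.9) and *Cnp* (23.8) had the highest mean levels among the members in Cebpa_fl/fl. There, the mean of *S100b* (8.88 TPM) was below that of *Sox10* (11.3 TPM), whereas in Cebpa_ASKO it was 83.7 TPM beside 13.3 TPM for *Sox10*, and among the members it was then the second after *Pmp22*. All 29 members together summed to 268, 333 and 270 TPM in Cebpa_fl/fl and to 423, 412 and 447 TPM in Cebpa_ASKO. Without *S100b* the sums were 255, 325 and 265 TPM against 313, 316 and 402 TPM, and the genotypes overlapped. Of 5 melanocyte markers, 3 were tested. *Dct* was lower in Cebpa_ASKO, and the other 2 had log2 fold changes above 0 and did not pass. The 5 summed to 2.09 to 2.81 TPM in Cebpa_fl/fl and 0.641 to 2.38 TPM in Cebpa_ASKO, with *Tyrp1* at or near 0. The part of melanocytes in the *S100b* level was not tested. The call of *S100b* was lost without Cebpa_fl/fl 3, Cebpa_ASKO 1 or Cebpa_ASKO 2 (edgeR adjusted p = 0.0537, 0.0749 and 0.0728). With the skeletal muscle share as a covariate, a fit in which no gene passed, the log2 fold change was 1.95. The muscle share was itself higher in every Cebpa_ASKO library, so that fit could hardly separate it from genotype.

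*Scn7a* was the only member past the threshold as lower. It encodes the sodium-sensing channel Nax, found in non-myelinating Schwann cells among other cells. Its level was 131, 168 and 166 CPM in Cebpa_fl/fl and 75.3, 70.8 and 74.7 CPM in Cebpa_ASKO. The Cebpa_ASKO libraries lay close together and all below the lowest Cebpa_fl/fl library. Means were 155 ± 20.6 CPM for the controls and 73.6 ± 2.43 CPM for Cebpa_ASKO (SD, n = 3 each), the latter 47.4% of the control level. *Scn7a* (chr2:66673425-66784914, GRCm38) fell by 1.08 on the log2 scale (standard error 0.117, edgeR adjusted p = 0.00418), and it passed in each of the 6 fits that left out 1 library, at edgeR adjusted p from 0.00367 to 0.0326. Over all 18 fits, the one with the muscle covariate among them, the log2 fold change of *Scn7a* ran from -1.18 to -0.95, and it passed in 16. The adipocyte markers moved in the same direction, and their part in this result was not tested.

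*Ncmap* encodes a small membrane protein of noncompact myelin. It was at 2.26, 2.15 and 2.07 CPM in Cebpa_fl/fl and at 4.55, 4.78 and 3.82 CPM in Cebpa_ASKO. The genotypes did not overlap, and replicates differed little within each of them, although the level was low. The log2 fold change was 1.02 (standard error 0.185, edgeR adjusted p = 0.0295) at chr4:135369576-135398227 of GRCm38. The call was lost with any 1 of 5 libraries left out, at edgeR adjusted p from 0.0571 to 0.128, and was kept without Cebpa_ASKO 3 (edgeR adjusted p = 0.0480). With the muscle covariate the log2 fold change was 0.58.

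**Figure D2:**
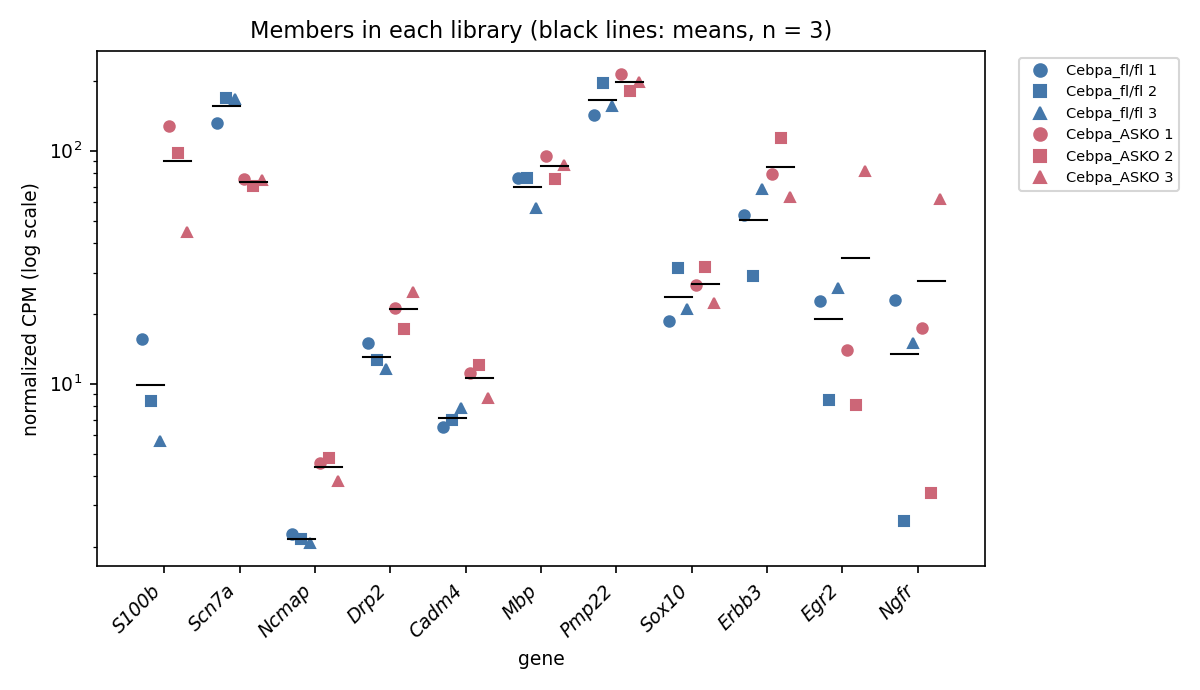
Normalized CPM (y axis, log scale) of 11 members (x axis) in each library, with blue for Cebpa_fl/fl, red for Cebpa_ASKO, a symbol for each replicate number and black lines for the means of 3 libraries. The genotypes were apart for S100b, Scn7a, Ncmap, Drp2 and Cadm4, and overlapped for Mbp, Pmp22, Sox10, Erbb3, Egr2 and Ngfr, of which Egr2 and Ngfr were highest in Cebpa_ASKO 3.

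C/EBPα recognizes a sequence whose consensus is close to TTGCNNAA, and its name comes from the CCAAT motif, so the promoters of the 3 members that passed were searched for these letters. RefSeq promoter sequences (GRCm38.p6) were at hand for 21 of the 29 members, in 43 windows, and 250 bases upstream of each start were read on both strands, each motif on its own without regard to overlap with the other. The windows of *S100b*, *Scn7a* and both starts of *Ncmap* in that table read as follows, 5′ to 3′ along the gene, with CCAAT or its reverse complement in capitals.
S100b chr10:76253586-76253835 (+ strand): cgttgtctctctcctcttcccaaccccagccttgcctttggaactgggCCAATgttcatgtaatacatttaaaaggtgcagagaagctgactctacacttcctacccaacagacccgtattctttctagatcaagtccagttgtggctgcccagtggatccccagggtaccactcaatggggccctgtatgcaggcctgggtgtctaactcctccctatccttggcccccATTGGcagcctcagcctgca
Scn7a chr2:66784911-66785160 (- strand): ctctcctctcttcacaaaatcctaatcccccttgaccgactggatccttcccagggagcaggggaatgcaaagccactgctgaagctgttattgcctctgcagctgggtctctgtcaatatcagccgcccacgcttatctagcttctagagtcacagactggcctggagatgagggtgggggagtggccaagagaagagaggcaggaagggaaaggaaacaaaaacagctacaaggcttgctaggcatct
Ncmap, upstream start, chr4:135398228-135398477 (- strand): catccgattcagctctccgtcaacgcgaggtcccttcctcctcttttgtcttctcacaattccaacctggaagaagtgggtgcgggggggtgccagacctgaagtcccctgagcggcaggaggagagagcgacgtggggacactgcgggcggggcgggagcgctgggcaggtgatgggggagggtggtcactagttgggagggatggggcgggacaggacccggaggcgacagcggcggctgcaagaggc
Ncmap, downstream start, chr4:135385673-135385922 (- strand): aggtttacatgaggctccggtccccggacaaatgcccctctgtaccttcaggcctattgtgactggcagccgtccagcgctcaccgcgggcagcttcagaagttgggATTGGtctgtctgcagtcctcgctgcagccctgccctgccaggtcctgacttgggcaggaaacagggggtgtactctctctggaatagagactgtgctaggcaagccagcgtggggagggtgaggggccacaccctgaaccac

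The *S100b* window held CCAAT in either orientation, once each, the downstream *Ncmap* window held it once, and the upstream *Ncmap* window and the *Scn7a* window did not hold it. Transcripts from the upstream *Ncmap* start were at 0.401, 0.402 and 0.516 TPM in Cebpa_fl/fl and 1.27, 3.14 and 0.719 TPM in Cebpa_ASKO, without overlap, whereas those from the downstream start overlapped, at 1.26, 1.43 and 0.933 TPM against 2.26, 1.19 and 2.54 TPM. A single *Ncmap* transcript that starts further downstream carried 26.3% of the level, at 0.389, 0 and 1.73 TPM against 0.573, 1.96 and 1.08 TPM. The upstream class rested on few counts as divided by kallisto, 26, 25 and 33 in Cebpa_fl/fl and 54, 128 and 40 in Cebpa_ASKO. None of the windows printed above held TTGCNNAA. Over all members, CCAAT was found in 14 of 43 windows (33.8% of the 32851 windows of all genes) and TTGCNNAA in 1, that of *Mag* (9.56% of all windows). Both are matches of letters, not measured binding.

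The proteins of compact myelin did not pass the threshold. *Mbp* encodes myelin basic protein, which binds the cytoplasmic membrane faces together. It was at 76.7, 76.5 and 56.5 CPM in Cebpa_fl/fl and at 95.1, 75.5 and 87.0 CPM in Cebpa_ASKO, and the genotypes overlapped. *Pmp22*, a tetraspan protein of the compact sheath, was at 143, 196 and 155 CPM against 213, 181 and 197 CPM, also with overlap. Its log2 fold change was 0.26, beside 0.30 for *Mbp*, with 95% confidence intervals from -0.08 to 0.60 and from -0.06 to 0.65 (edgeR adjusted p = 0.379 and 0.342). *Pllp*, which encodes the myelin proteolipid plasmolipin, was at 6.95, 6.91 and 6.61 CPM against 8.97, 7.81 and 8.65 CPM, so that the genotypes were apart by little (log2 fold change 0.31, edgeR adjusted p = 0.239). The 3 genes summed to 169 ± 32.6 TPM in Cebpa_fl/fl and 209 ± 17.0 TPM in Cebpa_ASKO (SD, n = 3).

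Because estimated counts were deposited by transcript, the start sites of *Mbp* and *Pmp22* could be separated. *Mbp* transcripts from the upstream start, which encode golli proteins that are also made outside glia, were at 7.54, 8.91 and 6.72 TPM in Cebpa_fl/fl and 9.04, 10.1 and 7.73 TPM in Cebpa_ASKO. The downstream start, that of the classic myelin proteins, carried 80.0% of the *Mbp* level over all libraries, at 29.7, 32.9 and 21.9 TPM against 37.8, 31.2 and 46.4 TPM. Most of the *Mbp* measured thus came from the myelin start, and both classes overlapped between genotypes. *Pmp22* was the reverse in its proportions. Its upstream start, which is used by myelinating Schwann cells, was at 30.2, 37.9 and 37.2 TPM against 38.4, 35.2 and 38.4 TPM, and carried 25.7% of the level. The downstream starts, which are active in many cell types, gave 72.6, 120 and 83.0 TPM against 112, 112 and 127 TPM. kallisto divides shared reads among transcripts by an estimate, so these levels are less certain than those of the whole gene.

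**Figure D3:**
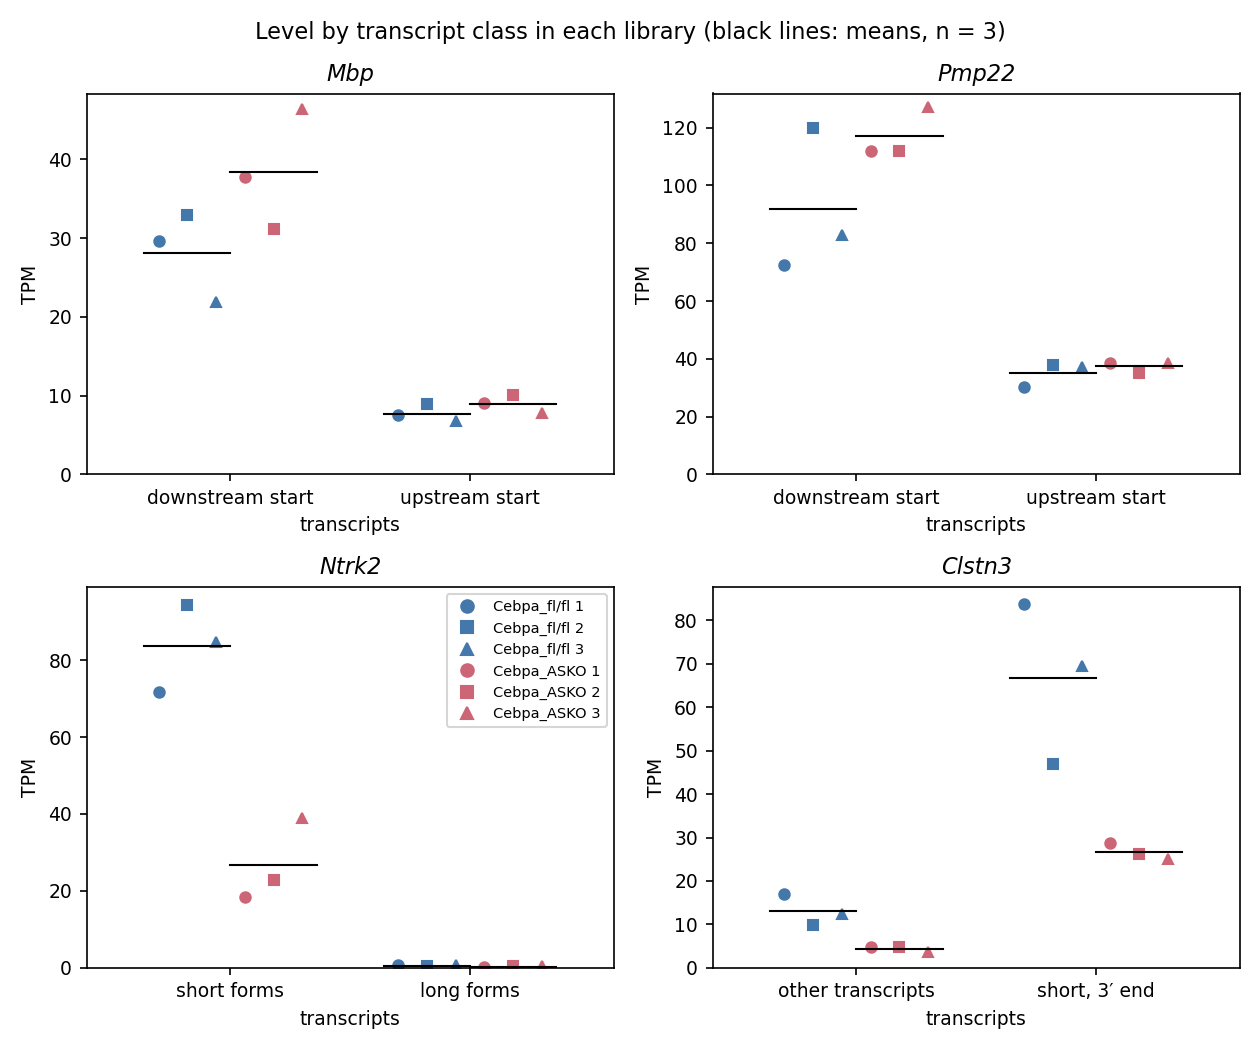
TPM (y axis) of transcript classes (x axis) of the members Mbp and Pmp22 and of Ntrk2 and Clstn3 in each library, with blue for Cebpa_fl/fl, red for Cebpa_ASKO and black lines for the means of 3 libraries. The upstream Pmp22 start was level across libraries at 30.2 to 38.4 TPM, while the short forms of Ntrk2 and both classes of Clstn3 lay lower in every Cebpa_ASKO library.

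Of the 8 genes of noncompact myelin, adhesion and the Schwann cell scaffold, 7 were tested, and *Ncmap* was the 1 that passed. *Drp2* and *Prx* encode partners that anchor the sheath to the basal lamina through dystroglycan. *Drp2* was at 15.0, 12.6 and 11.6 CPM in Cebpa_fl/fl and 21.1, 17.2 and 24.7 CPM in Cebpa_ASKO. Here the genotypes did not overlap, but the difference missed the threshold in edgeR (log2 fold change 0.68, standard error 0.165, edgeR adjusted p = 0.0709) and passed it in DESeq2 (adjusted p = 0.0109), in which 1807 genes passed beside 839 in edgeR. *Prx* was at 14.2, 13.9 and 10.5 CPM against 17.7, 12 and 16.0 CPM, with overlap. *Cadm4*, an adhesion molecule by which Schwann cells contact the axon, was at 6.50, 6.99 and 7.83 CPM against 11.1, 12 and 8.70 CPM. It too was apart between genotypes, and differed in DESeq2 (adjusted p = 0.0354) and not in edgeR (log2 fold change 0.57, edgeR adjusted p = 0.114).

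The other tested genes of this group did not pass, and their confidence intervals spanned 0. *Cnp*, an enzyme of noncompact myelin, was at 49.6, 53.3 and 27.9 CPM in Cebpa_fl/fl and 37.7, 37.3 and 49.6 CPM in Cebpa_ASKO (log2 fold change -0.07, 95% confidence interval -0.67 to 0.53). *Mag*, an adhesion protein on the axonal face of the sheath, was at 2.22, 2.98 and 1.39 CPM against 2.21, 1.68 and 2.37 CPM (-0.07, from -0.85 to 0.70). Both signs turned positive in limma on log2(TPM + 1), at 0.05 and 0.03. *Cldn19*, a tight junction gene of Schwann cells, lay between 1.12 and 2.53 CPM in Cebpa_fl/fl and between 1.63 and 2.72 CPM in Cebpa_ASKO. *Gjb1*, the gap junction gene of the sheath, was below the filter at 0.0844 to 0.333 CPM and 0.158 to 0.203 CPM.

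The transcription factors of the lineage did not pass. *Sox10* was at 18.6, 31.4 and 20.9 CPM in Cebpa_fl/fl and 26.5, 31.8 and 22.2 CPM in Cebpa_ASKO. The libraries of both genotypes were interleaved, and the log2 fold change was 0.18 with a 95% confidence interval from -0.35 to 0.72 (edgeR adjusted p = 0.736). From low to high, *Sox10* ordered the libraries as the basal epithelial gene *Krt5* did, except that Cebpa_fl/fl 2 and Cebpa_ASKO 1 changed places. *Krt5* was picked after the values were seen. Of the 10 mammary epithelial markers tested, 6 were higher in every Cebpa_ASKO library, which *Sox10* was not. The part of epithelium in the *Sox10* level was not tested. *Egr2* (Krox20), which switches on myelination and is also an early response gene in other cells, was at 22.7, 8.47 and 25.7 CPM against 13.9, 8.09 and 82.1 CPM. Cebpa_ASKO 3 alone was far above the rest, and without it the log2 fold change turned from 0.88 to -0.81. In that library *Egr1* and *Egr3*, early response genes of the same family that were looked at after these values were seen, were also at their highest, at 104 and 12.3 CPM beside 17.9 to 83.6 CPM and 3.79 to 7.59 CPM elsewhere, and their part in the *Egr2* value was not tested. *Foxd3*, a neural crest factor, was near 0 in both genotypes, at 0.127 to 1.54 CPM and 0.254 to 1.52 CPM. kallisto divided the *Egr2* and *Foxd3* counts equally between these genes and their copies on additional scaffolds of the genome, and both were summed.

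Beside *S100b* and *Scn7a*, the other 6 of the 8 surface and glial markers did not pass. *Erbb3*, a neuregulin receptor of Schwann cells that epithelia also carry, was at 53.0, 29 and 68.6 CPM in Cebpa_fl/fl and 79.7, 113 and 63.3 CPM in Cebpa_ASKO (log2 fold change 0.76, 95% confidence interval -0.05 to 1.58, edgeR adjusted p = 0.278). The 6 libraries stood in the same order from low to high for *Erbb3* as for the epithelial gene *Epcam*. The level of *Epcam* was 108, 99.4 and 167 CPM against 195, 208 and 157 CPM. This gene too was picked after the values were seen, and 6 of the 10 tested markers of its list did not overlap between genotypes, unlike *Erbb3*. The part of epithelium in the *Erbb3* level was not tested. *Ngfr*, the p75 neurotrophin receptor, was at 22.9, 2.58 and 14.9 CPM against 17.4, 3.41 and 62.2 CPM. Its libraries spread widely within each genotype, the highest library was again Cebpa_ASKO 3, and without it the log2 fold change turned from 1.04 to -0.40.

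The adhesion molecules were low and did not pass. *Cdh19*, a cadherin of Schwann cells, was at 8.05, 7.48 and 6.57 CPM in Cebpa_fl/fl and 10.7, 8.11 and 10.5 CPM in Cebpa_ASKO (log2 fold change 0.41, edgeR adjusted p = 0.230). *Ncam1*, a cell adhesion molecule of non-myelinating Schwann cells and of muscle, was at 2.62, 2.91 and 2.62 CPM against 3.54, 3.05 and 5.05 CPM. Both were apart between genotypes without reaching the threshold. *L1cam*, which Schwann cells and axons share, was at 5.61, 3.63 and 3.69 CPM against 3.85, 4.98 and 4.90 CPM, with overlap. *Gfap*, the intermediate filament of non-myelinating and repair Schwann cells, was barely detected, at 0.0633 to 0.274 CPM against 0.305 to 0.505 CPM (edgeR adjusted p = 0.251).

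**Figure D4:**
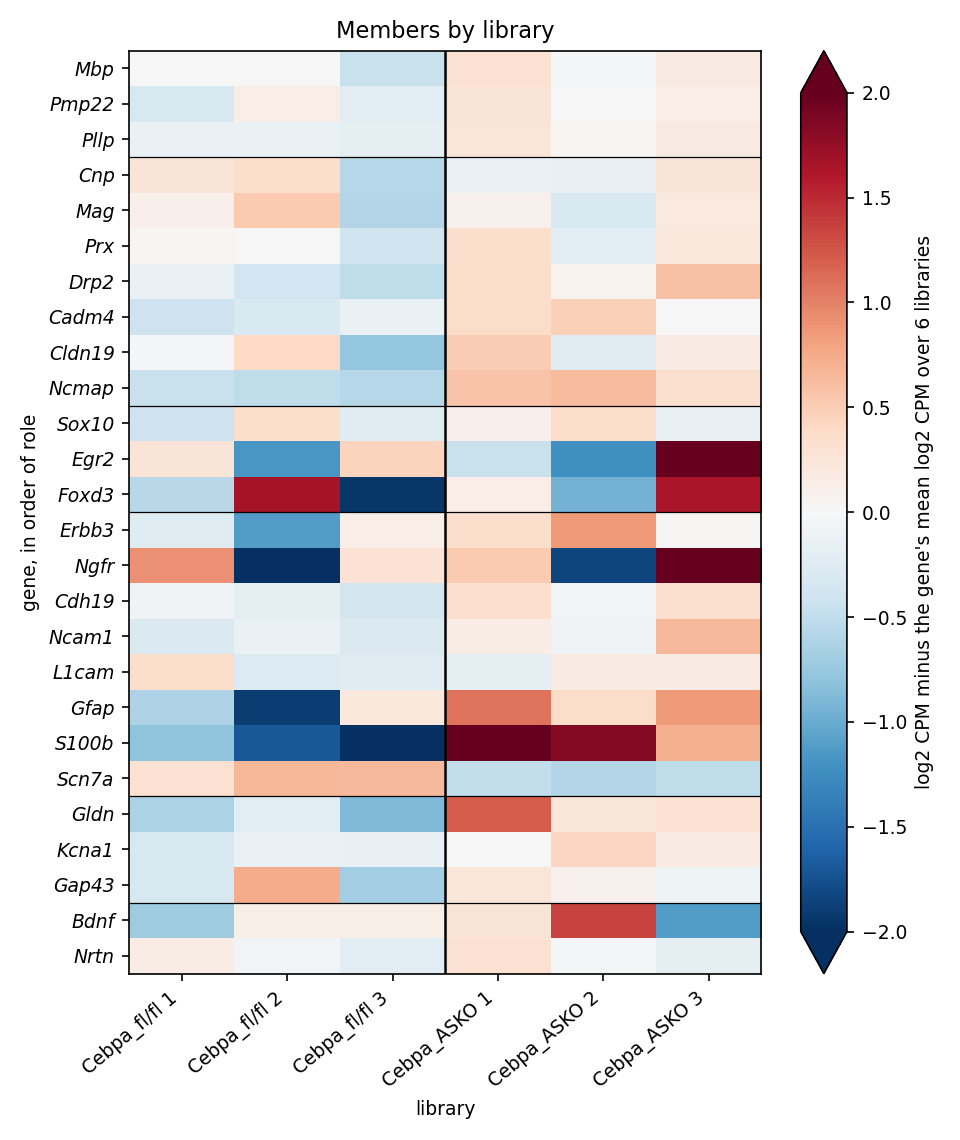
Log2 CPM of the 26 tested members (rows, in order of role) in the 6 libraries (columns), each minus the gene's mean over the libraries, with red above and blue below that mean and colours limited at 2 log2 units. S100b and Scn7a were among the members that changed sign between genotypes, as were Ncmap, Drp2 and Pllp, while Egr2 and Ngfr were highest in Cebpa_ASKO 3. Cebpa_fl/fl 3 was the lowest library for 15 members and Cebpa_ASKO 1 the highest for 10.

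The libraries did not contribute evenly to this pattern. Cebpa_fl/fl 3 was the lowest library for 15 of the 26 tested members, and the highest for 0 of them. The corresponding share over all genes tested was not computed. Cebpa_fl/fl 3 also had the lowest summed level of macrophage (553 TPM), fibroblast and progenitor (1716 TPM) and keratinocyte markers (9.08 TPM), and not of the other marker lists. Cebpa_ASKO 1 was the highest for 10, Cebpa_ASKO 2 for 6 and Cebpa_fl/fl 2 for 5. When Cebpa_fl/fl 3, Cebpa_ASKO 1 or Cebpa_ASKO 2 was left out, the count of members past the threshold dropped from 3 to 1, which was *Scn7a* each time. Without Cebpa_fl/fl 1, the library with lymphocyte markers, it was 2, *S100b* (log2 fold change 3.67) and *Scn7a* (-1.18).

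Genes of the node and axon were measured at low levels and did not pass. *Gldn* encodes gliomedin, which Schwann cells secrete to gather sodium channels at the node. It was at 0.599, 0.802 and 0.507 CPM in Cebpa_fl/fl and 2.15, 1.09 and 1.14 CPM in Cebpa_ASKO, and the genotypes did not overlap (log2 fold change 1.19, standard error 0.374, edgeR adjusted p = 0.142). *Kcna1*, a potassium channel of the axon beside the node, was at 1.51, 1.71 and 1.69 CPM against 1.90, 2.54 and 2.10 CPM. *Gap43*, a growth cone protein that immature Schwann cells also make, was at 1.24, 2.60 and 0.971 CPM against 1.83, 1.65 and 1.45 CPM. For *Gldn* and *Kcna1* each Cebpa_ASKO library lay above the controls, and for *Gap43* all lay within their range.

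The neurotrophic members did not differ between genotypes beyond their spread. *Bdnf*, the ligand of the receptor TrkB, was at 1.46, 2.58 and 2.58 CPM in Cebpa_fl/fl and 2.87, 6.08 and 1.10 CPM in Cebpa_ASKO. The Cebpa_ASKO libraries included both the highest and the lowest value, and without Cebpa_ASKO 2 the log2 fold change turned from 0.60 to -0.18. A single transcript of the 11 annotated carried 92.4% of the *Bdnf* level. *Nrtn*, neurturin, was at 3.68, 3.21 and 2.87 CPM against 4.11, 3.28 and 2.95 CPM (log2 fold change 0.08, 95% confidence interval -0.42 to 0.59). *Gdnf* was near 0, with 0.0844 to 0.222 CPM against 0.0254 to 0.380 CPM.

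Further genes of the same roles were taken from 3 lists. Of 24 other Schwann cell and myelin genes, 22 were tested, and 3 were higher and 0 lower at the same threshold (8 at an unadjusted p below 0.05, beside 19.8% of all genes tested), the median log2 fold change being 0.33 and 20 of 22 above 0. *Adgrg6*, a receptor that Schwann cells need in order to myelinate, was at 11.5, 14.5 and 13.3 CPM in Cebpa_fl/fl and 19.1, 20.8 and 19.4 CPM in Cebpa_ASKO (log2 fold change 0.59, edgeR adjusted p = 0.0359). *Itgb4*, a laminin receptor subunit of Schwann cells and of basal epithelium, was at 13.0, 15.2 and 17.0 CPM against 23.4, 27.9 and 25.4 CPM (0.76, edgeR adjusted p = 0.0213). *Ptprz1*, a receptor phosphatase of glia, was at 1.71, 1.71 and 1.82 CPM against 4.99, 5.65 and 2.82 CPM (1.36, edgeR adjusted p = 0.0494). All 3 were apart between genotypes.

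These 3 calls were close to the threshold. None of the 3 passed without Cebpa_fl/fl 1, Cebpa_ASKO 1 or Cebpa_ASKO 2, and 1 passed without Cebpa_fl/fl 3 (*Itgb4*) or Cebpa_ASKO 3 (*Ptprz1*). With the muscle covariate the log2 fold changes of *Adgrg6* and *Ptprz1* were 0.33 and 0.00. That of *Itgb4* ran from 0.55 to 0.86 over all 18 fits, the covariate fit among them. Of the most abundant genes of the list, *Ndrg1*, mutated in a hereditary neuropathy and widely expressed, was at 55.2, 68.4 and 54.9 CPM against 85.4, 61.9 and 115 CPM, and *Lpar1*, a lysophosphatidic acid receptor, at 36.1, 60.8 and 28.4 CPM against 39.6, 37.9 and 51.4 CPM. Neither passed.

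Of 25 other neuronal and axonal genes, 14 could be tested and 1 passed, with a median log2 fold change of 0.32. Over all genes tested, 5.22% passed. An unadjusted p below 0.05 in edgeR was found for 2 of these 14, beside 19.8% of all genes tested. *Kcna2*, a voltage-gated potassium channel that pairs with *Kcna1* beside the node and occurs in other cells too, was at 8.21, 5.09 and 5.68 CPM in Cebpa_fl/fl and 33.8, 31.8 and 24.4 CPM in Cebpa_ASKO. Every Cebpa_ASKO library was far above the controls. The log2 fold change was 2.24 ± 0.219 (standard error, edgeR adjusted p = 0.00292) beside 0.41 for its partner *Kcna1*. The call was kept whichever library was left out. Over all 18 fits, the one with the muscle covariate among them, the log2 fold change of *Kcna2* ran from 1.36 to 2.47. *Calca*, which encodes the sensory neuropeptide CGRP and calcitonin, was at 22.7 CPM in Cebpa_fl/fl 2 and at 0.268 to 1.14 CPM in the other 5 libraries. *Cntnap1*, an axonal protein beside the node, and *Uchl1*, an abundant neuronal enzyme, overlapped between genotypes at 17.7 to 32.3 CPM and 2.28 to 6.17 CPM in the controls.

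Of 23 other neurotrophic ligands and receptors, 20 were tested, and 3 were lower and 0 higher in edgeR, with a median log2 fold change of 0.17 and 6 of 20 at an unadjusted p below 0.05, beside 19.8% of all genes tested. *Ntrk2*, the gene of TrkB, was at 270, 309 and 299 CPM in Cebpa_fl/fl and 87.2, 89.1 and 140 CPM in Cebpa_ASKO (log2 fold change -1.48, standard error 0.201, edgeR adjusted p = 0.00989). *Sort1*, sortilin, which binds proneurotrophins together with p75 and sorts other proteins in adipocytes, was at 278, 336 and 376 CPM against 141, 151 and 130 CPM (-1.23, edgeR adjusted p = 0.00476). *Clstn3*, calsyntenin 3, was at 94.2, 47.9 and 68.4 CPM against 29.4, 24.1 and 20.3 CPM (-1.51, edgeR adjusted p = 0.0251). The genotypes were apart for each of the 3. *Ntrk2* lost its call without Cebpa_ASKO 1 or Cebpa_ASKO 2 (edgeR adjusted p = 0.0573 and 0.0552), and *Clstn3* without Cebpa_fl/fl 3 or any 1 of the Cebpa_ASKO libraries (edgeR adjusted p from 0.0665 to 0.107).

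The transcripts of *Ntrk2* and *Clstn3* added detail. Transcripts of *Ntrk2* that span over 300 kb and reach the kinase exons at the 3′ end of the gene were at 0.631, 0.461 and 0.715 TPM in Cebpa_fl/fl and 0.159, 0.381 and 0.396 TPM in Cebpa_ASKO. The shorter transcripts carried 99.2% of the level, at 71.7, 94.3 and 84.8 TPM against 18.4, 22.8 and 38.9 TPM. Both classes were lower in each Cebpa_ASKO library, and nearly all of the level was of the shorter class. The classes were set by span alone, so the share of forms without the kinase exons was not measured. At *Clstn3*, a short transcript of the last exons, at the place of the form *Clstn3b* known from adipocytes, carried 84.2% of the level and was at 83.7, 46.9 and 69.4 TPM against 28.8, 26.2 and 25.0 TPM. The other *Clstn3* transcripts were at 16.9, 9.82 and 12.4 TPM against 4.91, 4.71 and 3.67 TPM. The adipocyte markers were lower in the same libraries as *Ntrk2*, *Sort1* and *Clstn3*, and their part in these results was not tested. With the muscle covariate the log2 fold change of *Ntrk2* was -0.70. Over all 18 fits, the covariate fit among them, *Sort1* ran from -1.54 to -1.12 and *Clstn3* from -1.74 to -1.24.

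**Figure D5:**
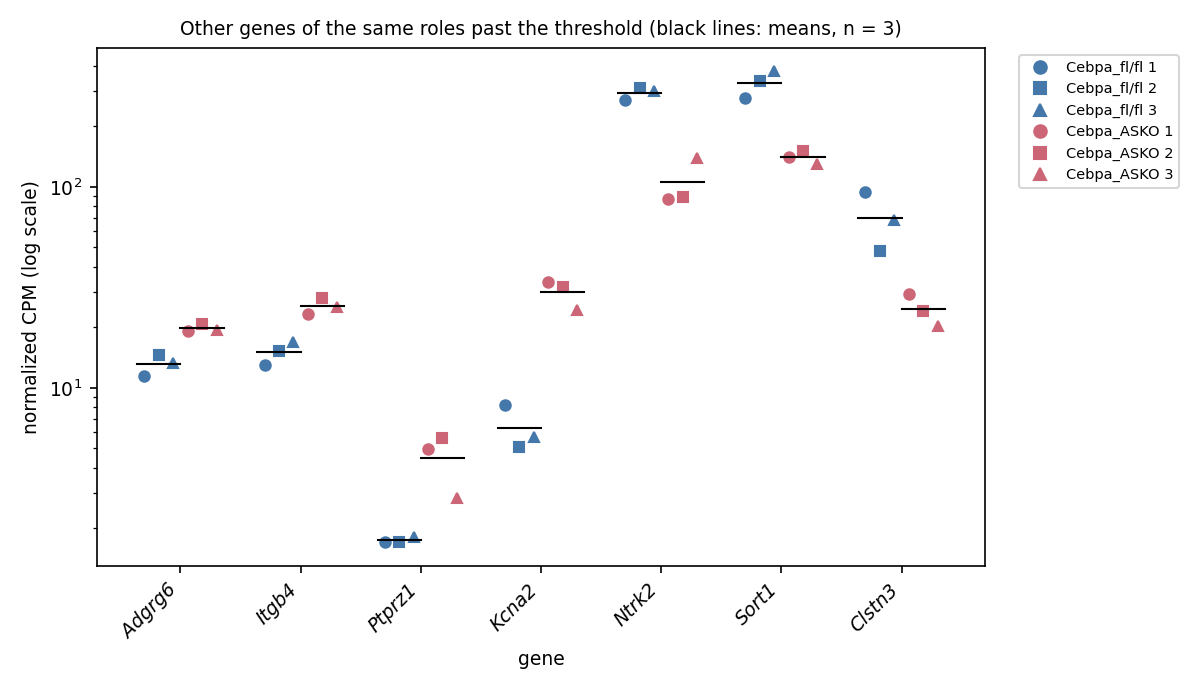
Normalized CPM (y axis, log scale) of the 7 genes from the lists of other Schwann cell, neuronal and neurotrophic genes that passed the threshold (x axis) in each library, with blue for Cebpa_fl/fl, red for Cebpa_ASKO and black lines for the means of 3 libraries. The first 4 were higher and the last 3 lower in every Cebpa_ASKO library, with Kcna2 at 24.4 to 33.8 CPM against 5.09 to 8.21 CPM.

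The partners of the neurotrophic members were then set beside them. *Ret*, the signalling receptor of *Gdnf* and *Nrtn*, was at 3.24, 3.53 and 2.68 CPM in Cebpa_fl/fl and 2.94, 3.15 and 4.23 CPM in Cebpa_ASKO, and *Gfra2*, the coreceptor of neurturin, at 19.6, 20.3 and 16.2 CPM against 15.1, 20.1 and 22.3 CPM, both with overlap. *Manf*, the most abundant gene of the list in TPM and a factor secreted under endoplasmic reticulum stress, was at 60.6, 63.5 and 55.5 CPM against 59.3, 49.8 and 71.6 CPM (log2 fold change 0.01). *Ntrk3*, the receptor of neurotrophin 3, was at 36.5, 15.4 and 43.3 CPM against 100, 84.5 and 71.6 CPM. It was apart between genotypes in the direction opposite to *Ntrk2*, with a log2 fold change of 1.43 that missed the threshold (edgeR adjusted p = 0.0822). *Gfra1*, the coreceptor of *Gdnf*, was at 3.00, 2.30 and 2.26 CPM against 4.58, 3.28 and 5.37 CPM, and was also apart between genotypes. Its log2 fold change of 0.81 missed the threshold in edgeR (edgeR adjusted p = 0.137), and *Gfra1* passed in DESeq2. *Ret*, *Gfra1*, *Gfra2* and *Ntrk3* were chosen after their values were seen.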

How the data were processed

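RNA-seq of whole iWAT from 3 Cebpa_fl/fl and 3 Cebpa_ASKO mice was analysed, 1 library per mouse, with genotype and replicate number taken from the sample titles. For each library, the authors deposited estimated counts per transcript, unnormalized, and TPM per transcript, made with kallisto 0.44.0 per the submitters' processing notes, and they also deposited TPM summed per gene symbol. The notes name GRCm38.p6 and GRCh38.p12 with no role given. The transcript annotation is not given in the sources used here.

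Transcripts were matched by identifier to the GENCODE M21 annotation (GRCm38), with its symbol table for copies on additional scaffolds (118084 of 118489 transcripts, at least 99.923% of each library's counts). Estimated counts were summed per symbol and rounded. The sum matched the deposited gene TPM within 0.01 TPM for every gene of the lists. kallisto divides reads among similar transcripts, so transcript classes, which were drawn up after the data were seen, are estimates. Replicates differed by more than sampling noise.

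The test was edgeR 4.0.16's quasi-likelihood test with TMM scaling and its filter on low counts, Cebpa_ASKO over Cebpa_fl/fl, with Benjamini-Hochberg adjustment over 16082 genes and a threshold of 0.05. The paper names DESeq2, which was run as an alternative (DESeq2 1.42.0), as were limma 3.58.1 on log2(TPM + 1) and log2(TPM + 0.1) of genes with at least 1 TPM in 3 libraries and without that filter, other scalings and filters on counts, a replicate block, the skeletal muscle share as a covariate, each library left out, and, chosen after seeing the data, reference transcripts only. R 4.3.3, Python 3.11.15, pandas 2.3.3 and matplotlib 3.10.9 were used. The test was checked on simulated data.

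The members, the gene lists and the tests were chosen with earlier results of these data known. Named genes are all members, each gene past the threshold and the 3 highest in mean TPM in each list of other genes, *Cebpa*, and genes of marker lists that moved with the genotype, with exceptions stated where they occur. Of the genes this rule names, 1 is not reported here.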

Additional observations from a re-analysis of the deposited data

How the results depend on the processing

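Counts past the threshold depended on the test. Over all genes they were 839 in edgeR, 1807 in DESeq2, 134 in limma without a filter, 0 with the skeletal muscle share as a covariate (870 at an unadjusted p below 0.05) and 315 to 918 with 1 library left out. Because the muscle share was higher in every Cebpa_ASKO library, the covariate fit could hardly separate it from genotype, and its lost calls decide nothing about muscle. For the members, the count was 3, with 5 in DESeq2 (*Cadm4* and *Drp2* added), 0 in limma without a filter, 0 with the muscle covariate and 1 to 3 with 1 library left out. For the other Schwann cell and myelin genes it was 3, with 5 in DESeq2, 0 in the 3 limma fits, 0 with the replicate block, 0 with the muscle covariate and 0 to 2 with 1 library left out. Kcna2, the 1 other neuronal and axonal gene, was lost (0) in limma without a filter and with the muscle covariate. For the other neurotrophic genes it was 3, with 6 in DESeq2, 0 in those same fits and 1 to 4 with 1 library left out.

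The replicate number as a block gave 369 genes and 2 members, without *Ncmap* (edgeR adjusted p = 0.102). Deviations of same-numbered libraries correlated at 0.116, -0.0257 and -0.279, and those of differently numbered libraries at -0.22 to 0.22. With 3 libraries per genotype, these values cannot tell whether the numbers pair the mice. Dropping scaffold copies gave 840 genes and 3 members.

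Of 545 values recomputed, 33 had the opposite sign. With the muscle covariate these were *Cadm4* (-0.03), *Sox10* (-0.90), *Erbb3* (-0.01), *Kcna1* (-0.06), *Gap43* (-0.88), *Bdnf* (-3.24), *Nrtn* (-0.05), *Cnp* (0.21) and *Mag* (0.19). In limma at pseudocounts of 1 and 0.1, *Cnp* gave 0.05 and 0.06 and *Mag* 0.03 and 0.06. With 1 library left out, log2 fold changes ran from -0.31 to 0.09 for *Cnp*, -0.32 to 0.20 for *Mag*, -0.03 to 0.52 for *Cldn19*, -0.81 to 1.34 for *Egr2*, -0.79 to 1.74 for *Foxd3*, -0.40 to 1.66 for *Ngfr*, -0.03 to 0.32 for *L1cam*, -0.23 to 0.56 for *Gap43*, -0.18 to 1.01 for *Bdnf* and -0.06 to 0.18 for *Nrtn*. None of these was past the threshold, and the cause was not tested. With 3 mice per genotype, differences of the size most members showed did not pass the adjusted threshold in edgeR, although 9 of 26 were at an unadjusted p below 0.05.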
